A study of Mus musculus with 3 samples.

Results

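Solute carriers are the membrane proteins that move nutrients, ions, metals and metabolites into and out of cells and organelles, and their genes carry the symbol Slc with a family number. The genes described here were chosen on measured values: a probe set annotated to a single gene whose symbol is Slc and a number, with the highest mean probe set standing for each gene, was kept if the highest of the 3 arrays reached a log2 expression of at least 8. This rule kept 129 of 363 measured Slc genes, out of 19935 genes in all. The 129 genes fall into 38 carrier families, and 4 of them encode no carrier (Slc9a3r1, Slc9a3r2, Slc4a1ap and Slc7a6os are named after one).

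RNA of NMuMG cells, a line of mouse mammary gland epithelium, was hybridised to 3 Affymetrix arrays. The mock cells (n = 1) carried the pCAGIP vector. The MAFK cells (n = 2) were clone 4 and clone 10, both carrying pCAGIP-FLAG-MafK, that is, the small MAF transcription factor MAFK with a FLAG tag. All cells were kept in puromycin with 10% serum. Each MAFK array is 1 clonal line, and nothing in the labels makes the mock cells clonal, so an effect of MAFK and an effect of cloning cannot be told apart here. Mock was measured once, and no label states whether the cultures were independent, so the p-values rest on the spread between 2 arrays alone, and the number of arrays limits the precision.

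Values are log2 expression after RMA, the robust multi-array average, which normalises the arrays to each other. The array medians over 28815 probe sets were 6.89 (mock), 6.92 (clone 4) and 6.93 (clone 10). Of 15 epithelial markers, 4 reached a log2 value of 8 on any array (Krt8, Krt18, Krt19 and Cdh1), whereas Epcam read 5.58 throughout. Summed over the list, epithelial markers gave 120 in mock and 114 in each clone, and Cdh1 alone went from 11.35 to 6.85 and 6.64. The fibroblast list of 11 genes summed to 71.4, 74.2 and 74.8 in mock, clone 4 and clone 10, with Pdgfrb at 6.78, 9.95 and 10.30 and, the other way, Dcn at 7.88, 5.76 and 6.06. Sums of the endothelial list (8 genes) ran from 49 to 49.4, those of the adipocyte list (6 genes) from 37.4 to 37.7 and those of the immune list (8 measured of 9) from 50.5 to 52.6, with Ptprc at 5.81 on every array. Cd14, the only immune marker to reach 8, read 9.69, 7.42 and 7.83. The part of these marker shifts in the values below was not tested. In RNA of a whole culture, fewer cells of a type and less RNA per cell cannot be told apart.

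Carriers work in several ways. Uniporters let a solute follow its own gradient, symporters and antiporters couple it to the gradient of sodium, protons or another solute, and the sodium pump maintains the sodium gradient that many of them use. In mammary epithelium they help to supply the amino acids, glucose, lipids and zinc that milk needs, and their place on the apical or basolateral face follows the polarity of the cell. MAFK has no activating domain of its own. It binds DNA at MAF recognition elements, alone or with partners such as NRF2 and BACH1, and NRF2 is known to drive the cystine carrier gene Slc7a11.

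Most expressed carrier genes differed little between MAFK and mock cells, and a small set differed strongly. Both clones lay at least 2-fold above mock for 8 of the 129 genes (6.2%) and at least 2-fold below it for 10 (7.75%). The same was seen for 1.19% (higher) and 1.81% (lower) of all 19935 genes, and for 2.47% and 3.47% of the 8232 genes that pass the same level of 8. Those gene totals include the carriers themselves. At the other end, 93 of the 129 genes stayed within 1.5-fold of mock in both clones, and 20 had values on all 3 arrays that were equal to within 1e-08. Within 1.5-fold stayed 18093 of all 19935 genes and 6830 of the 8232 at the level of 8. Equal values on all arrays were found for 6846 and 1720 of them. All 4 of these shares were larger than those of the carriers. Exact ties between separate arrays were thus common in the processed values, and their origin was not tested. A gene that read the same on all arrays, here or below, is not shown to be unchanged to that precision. The median log2 difference was 0.00 in both clones, as it was over all genes.

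The words rose and fell are kept for genes whose difference reached 2-fold in each clone and whose Benjamini-Hochberg adjusted p, from limma fitted on all genes, was under 0.05. By this rule 2 carrier genes rose and 6 fell. The genes that rose were Slc27a1 and Slc25a45, and those that fell were Slc44a3, Slc4a4, Slc7a2, Slc7a7, Slc25a13 and Slc9a2. Over all genes 0.401% rose and 0.762% fell, and among genes at the level of 8 it was 0.862% and 1.36%. The level of 8 bears on these counts: 7 of the 10 lower genes reached it in mock alone, and 6 of the 8 higher genes reached it only with MAFK. These 13 genes were kept through the side on which they were high, so the counts describe the chosen set and support nothing beyond it. For 10 of the 18 genes apart, the 6 that fell and Slc18b1, Slc17a1, Slc1a3 and Slc25a23, the lower side (mock or the mean of the clones) lay under the median of every array; the endothelial marker Pecam1 read 5.99. No detection calls were used here, so the folds of these 10 genes may understate the change, and their order is not read. With members taken by the mean of the arrays instead, 119 genes remain, of which 6 were higher, 3 lower, 2 rose and 0 fell.

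**Figure D1:**
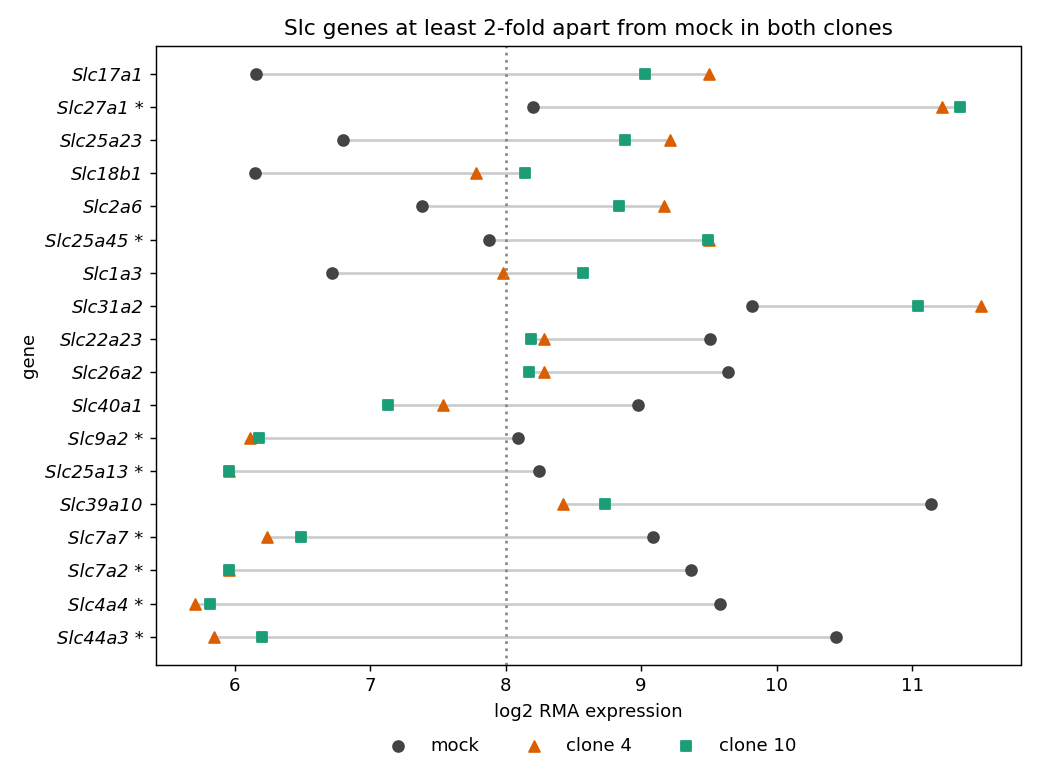
Log2 RMA expression (x axis) of the 18 carrier genes that differed from mock by 2-fold or more in each clone, with 1 point for each array (circle mock, triangle clone 4, square clone 10) and the level of 8 as a dotted line. A star marks the 2 genes that rose and the 6 that fell. The clones lie close together beside their distance from mock, for example Slc44a3 at 5.85 and 6.20 against 10.44.

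Both clones gave nearly the same picture. No expressed carrier gene was 2-fold apart between clone 10 and clone 4, against 0.441% of all genes and 0.96% of those at the level of 8. For 129 genes a count of 0 is near such small shares, so it is not read as a trait of the carriers. The equal values counted below also add to the closeness of the clones. The widest gap was in Slc16a10, an aromatic amino acid carrier, at 8.62 in mock against 7.79 and 8.50 in clones 4 and 10. Slc1a3 followed at 0.60 higher in clone 10 on the log2 scale. Values equal to within 1e-08 in the clones were found for 38 of the 129 genes (29.5%), against 37.7% of genes at the level of 8 and 55.5% of all genes. A gene with equal clones enters the test with the smallest standard error, 0.069, and so passes more easily. Among those that fell this holds for Slc25a13, and for Slc7a2, whose clones lay 0.01 apart and whose standard error was also 0.069.

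**Figure D2:**
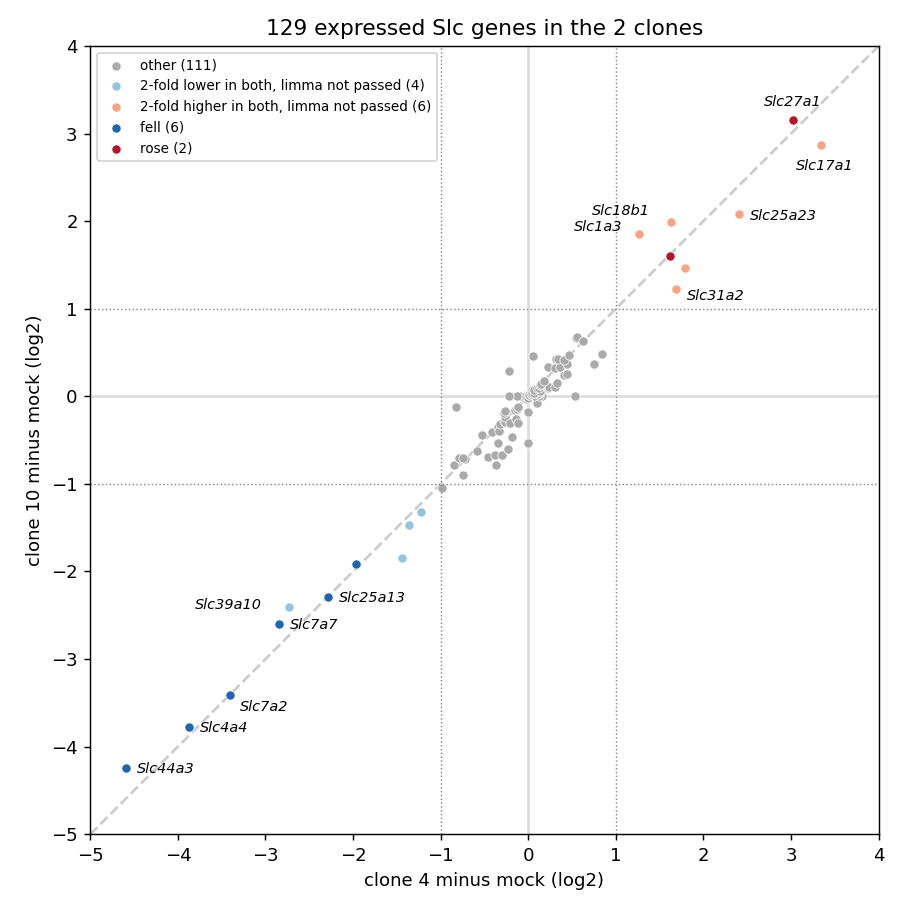
Log2 difference from mock in clone 4 (x axis) against that in clone 10 (y axis), 1 point for each of the 129 carrier genes, coloured by call; dotted lines mark 2-fold and the dashed line equality. The 18 genes apart lie along the dashed line on both sides, and the other genes crowd around 0; both axes share the mock array, so their likeness is no independent evidence.

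Start-site windows are shown for 4 of the genes apart, because each holds letters that MAF proteins or NRF2 with a small MAF partner can recognise. The windows are from RefSeq (build GRCm38.p6), run from 250 bases before to 50 after a transcript start, and are written along the gene's strand. Both strands were searched for TGACNNNGC (the antioxidant response element core), TGCTGA (the half-site of the MAF recognition element) and the full element, which is TGCTGA followed by its reverse complement TCAGCA with 1 or 2 bases between. A full element can hold the core, and the half-site lies within the full element. Capitals mark the matches. Slc27a1 (chr8:71569347-71569646, + strand) has TGCTGA from 208 bases before the start and the same half-site on the opposite strand from 43 before. Slc7a7 (chr14:54410154-54410453, - strand) has TGCTGA from 177 bases before. The window of Slc31a2 (chr4:62286179-62286478, + strand) holds the core on the opposite strand from 164 bases before, and that of Slc25a23 (chr17:57059814-57060113, - strand) from 110 before. For each gene 1 window with a match is shown. The half-site was in 1 of 3 windows of Slc27a1 and in 2 of 5 of Slc7a7, so their other windows lack it. The core was in the 1 window of Slc31a2 and in 2 of 2 of Slc25a23.
Slc27a1: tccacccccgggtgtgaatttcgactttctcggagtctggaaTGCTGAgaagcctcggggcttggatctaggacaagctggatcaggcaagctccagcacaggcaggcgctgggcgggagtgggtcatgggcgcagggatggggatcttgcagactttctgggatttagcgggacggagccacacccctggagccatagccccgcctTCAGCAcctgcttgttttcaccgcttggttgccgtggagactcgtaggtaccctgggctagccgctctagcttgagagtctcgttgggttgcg
Slc7a7: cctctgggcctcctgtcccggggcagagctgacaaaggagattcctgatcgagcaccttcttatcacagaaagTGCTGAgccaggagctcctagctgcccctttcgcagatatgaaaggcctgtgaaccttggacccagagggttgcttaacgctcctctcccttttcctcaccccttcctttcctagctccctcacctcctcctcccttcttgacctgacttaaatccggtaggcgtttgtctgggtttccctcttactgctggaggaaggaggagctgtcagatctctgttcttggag
Slc31a2: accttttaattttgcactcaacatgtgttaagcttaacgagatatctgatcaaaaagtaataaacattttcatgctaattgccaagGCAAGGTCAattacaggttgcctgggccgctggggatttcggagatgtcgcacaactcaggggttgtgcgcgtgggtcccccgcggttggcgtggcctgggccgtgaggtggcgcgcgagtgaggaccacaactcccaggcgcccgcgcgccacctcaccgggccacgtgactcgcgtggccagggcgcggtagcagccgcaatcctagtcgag
Slc25a23: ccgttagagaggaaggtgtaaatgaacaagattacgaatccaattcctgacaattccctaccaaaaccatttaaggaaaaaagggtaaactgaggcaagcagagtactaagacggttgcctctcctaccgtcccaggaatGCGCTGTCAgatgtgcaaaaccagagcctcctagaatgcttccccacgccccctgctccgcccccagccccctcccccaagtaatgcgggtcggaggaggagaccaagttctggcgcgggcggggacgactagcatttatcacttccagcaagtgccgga

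A start-site window was matched for 105 of the 129 genes. A gene was counted for a motif if any of its windows held it. The core was found for 24 of these (22.9%), against 14% of the 27025 genes with a window: 2 of 8 higher genes (Slc31a2 and Slc25a23), 0 of 6 lower genes and 22 of the 91 others. The half-site was found for 20 (19%), against 21.7% of all genes: 3 of 8 higher genes (Slc27a1, Slc2a6 and Slc18b1), 1 of 6 lower genes (Slc7a7) and 16 of 91 others. The full element was in the window of none of the 105. Over all 32851 windows, 12.4% held the core, 19.5% the half-site, and 2 windows held the full element with 1 base between and 2 with 2 bases. These are matches of letters in short windows, and binding was not measured here. Genes with more windows had more chances to be counted. The shares of genes were not adjusted for the number of windows or for expression, so a gap from all genes is not read as a trait of the carriers.

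Lipid carriers gave 1 gene that fell and 1 that rose. Slc44a3, a member of the choline transporter-like family, read 10.44 in mock against 5.85 in clone 4 and 6.20 in clone 10 (6.03 ± 0.24, SD, n = 2). It fell, with a measured difference of 21.3-fold against clone values under the array medians (log2 difference -4.42 ± 0.188, SE; limma adjusted p = 0.0346). Its relatives showed no such gap: Slc44a1, which carries choline across the plasma and mitochondrial membranes, read 11.28, 11.05 and 11.28 in mock, clone 4 and clone 10, and Slc44a2 read 10.03 on all arrays. Slc27a1 encodes FATP1, which takes up long-chain fatty acids and joins them to coenzyme A. It read 8.20 in mock against 11.22 in clone 4 and 11.35 in clone 10 (11.28 ± 0.09, SD, n = 2), so that both clones lay far above mock. It rose 8.47-fold (log2 difference 3.08 ± 0.0952, SE; limma adjusted p = 0.0293), whereas its relative Slc27a4 (FATP4) read 8.56, 8.61 and 8.61. After a second quantile normalization Slc44a3 no longer passed (limma adjusted p = 0.054). Of the 6 expressed carriers of fatty acids, bile acids and choline, 1 rose, 1 fell and 4 did neither.

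Slc27a1 and Slc7a2 lie on chromosome 8, whose 955 genes averaged 0.12 above mock in both clones on the log2 scale, and Slc7a7 lies on chromosome 14, whose 699 genes averaged -0.16 in clone 4 and -0.08 in clone 10. On the remaining chromosomes other than X the pooled averages were 0.01 and 0.00. The part of these shifts in the 3 genes was not tested. Leaving out chromosomes 8, 14 and X, a choice added after the data were seen, left 109 carrier genes, of which 7 were higher, 8 lower, 1 rose and 4 fell.

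Among carriers of bicarbonate, protons and inorganic ions, of 10 expressed members, 3 were at least 2-fold lower and none higher, and 2 fell. Slc4a4 encodes the sodium bicarbonate cotransporter NBCe1 of basolateral membranes. It read 9.58 in mock against 5.71 in clone 4 and 5.82 in clone 10 and fell, with a measured difference of 14.1-fold against clone values under the array medians (log2 difference -3.82 ± 0.0859, SE; limma adjusted p = 0.0256). The anion exchanger gene Slc4a2 of the same family read 9.85 on every array. Slc9a2, the gene of the sodium-proton exchanger NHE2, read 8.09, 6.11 and 6.18 in mock, clone 4 and clone 10, and fell 3.84-fold (limma adjusted p = 0.0343). Both clones were also below mock for Slc26a2, the sulfate carrier that feeds the sulfation of proteoglycans. It read 9.64, 8.28 and 8.17, a 2.67-fold difference that did not pass (limma adjusted p = 0.0514). Chloride cotransporter genes moved by less: Slc12a2 (NKCC1) read 11.51 in mock and 11.39 in both clones, Slc12a7 (KCC4) differed by -0.44 and Slc12a4 (KCC1) by 0.37 on the log2 scale. Among carriers below the level of 8, the endosomal exchanger gene Slc9a9 read 7.76, 5.88 and 5.96. It fell, with a measured difference of 3.57-fold against clone values under the array medians (limma adjusted p = 0.0346).

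Amino acid carriers split between 2 genes that fell and a majority near mock. Slc7a2, the gene of the cationic amino acid carrier CAT2, read 9.37 in mock and 5.96 in both clones and fell 10.6-fold (log2 difference -3.41 ± 0.069, SE; limma adjusted p = 0.0256). Slc7a7 encodes y+LAT1, a light chain that exchanges cationic for neutral amino acids once joined to the heavy chain SLC3A2. It read 9.09, 6.24 and 6.49 in mock, clone 4 and clone 10 and fell 6.61-fold (log2 difference -2.72 ± 0.141, SE; limma adjusted p = 0.0414). After a second quantile normalization Slc7a7 did not pass (limma adjusted p = 0.0592). The heavy chain gene Slc3a2 itself read 12.70, 12.52 and 12.23. Slc7a5, which encodes the leucine-carrying partner LAT1, read 11.89, 11.53 and 11.11. These are log2 differences of -0.32 for Slc3a2 and -0.57 for Slc7a5, neither past the test (limma adjusted p = 0.515 and 0.371). The other cationic carrier genes of the family also stayed within 2-fold, with Slc7a1 at 9.99, 10.52 and 9.99 and Slc7a6 at 10.47, 10.91 and 10.72.

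One amino acid carrier gene was higher. Slc1a3, which encodes the glutamate and aspartate carrier GLAST, read 6.72 in mock against 7.98 in clone 4 and 8.57 in clone 10. The 2.93-fold difference did not pass (limma adjusted p = 0.177), since the clones lay 0.60 apart. Within the same family Slc1a4 read 8.87 in mock and 9.49 in both clones, while the glutamine carrier gene Slc1a5 read 10.00, 9.77 and 9.40. The SLC38 family had no member apart. Slc38a2, the amino acid-responsive carrier SNAT2, differed by 0.11, Slc38a6 by -0.72 and Slc38a9, which senses arginine at the lysosome, by -0.73 on the log2 scale. Of the 21 expressed carriers of amino acids and peptides, 1 was higher without passing, 2 fell and 18 did neither. The cystine carrier gene Slc7a11, below the level of 8 on every array, read 7.84, 6.70 and 5.85, and Slc43a2, a carrier of neutral amino acids, read 7.68 in mock and 6.64 in both clones. Neither passed (limma adjusted p = 0.254 and 0.0543).

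**Figure D3:**
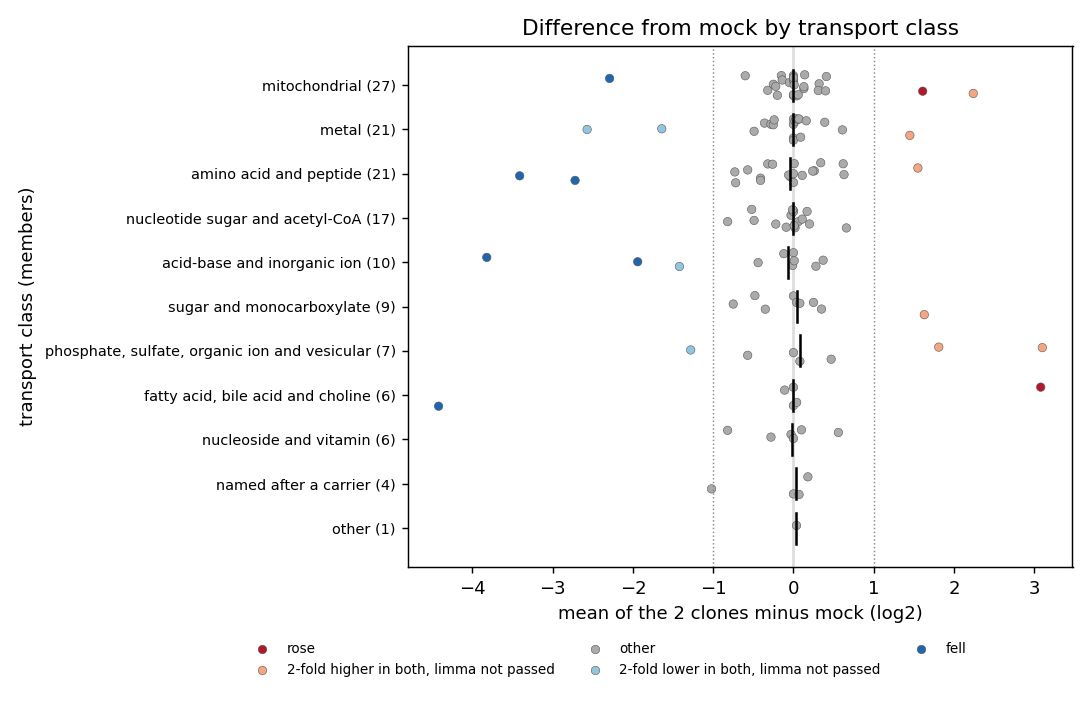
Mean log2 difference of the 2 clones from mock (x axis) for each of the 129 carrier genes (points, spread vertically at random within a class) by transport class, with the class median as a bar and dotted lines at 2-fold. Class medians lie near 0, and genes apart appear in 7 of the classes, on both sides in 5 of them.

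Metal carriers included 3 genes apart, none past the test. Slc39a10 encodes the zinc importer ZIP10 and read 11.14 in mock against 8.42 in clone 4 and 8.73 in clone 10. Both clones were far below mock, by 5.93-fold, but the difference just missed the threshold (limma adjusted p = 0.0561). Slc39a6 encodes ZIP6, known to pair with ZIP10 in a zinc-importing complex, and read 9.11 on all 3 arrays. Ferroportin (Slc40a1), the only known iron exporter of mammalian cells, read 8.98, 7.54 and 7.13 (3.12-fold lower, limma adjusted p = 0.115), and the iron importer gene Slc11a2 (DMT1) read 9.13, 9.21 and 9.18. For copper, Slc31a2 (CTR2) read 9.82, 11.51 and 11.04, a 2.74-fold higher mean that did not pass (limma adjusted p = 0.151). The high-affinity copper importer gene Slc31a1 (CTR1), which lies on chromosome 4 with 1 protein-coding gene between it and Slc31a2, read 10.34, 10.07 and 10.05. Slc30a4, whose product loads zinc into vesicles and milk, differed by 0.39 and Slc39a13 by 0.61 on the log2 scale. Of 21 expressed metal carriers, 1 was higher, 2 lower and 18 neither.

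Mitochondrial carriers, the SLC25 family, formed the largest class, with 27 expressed members. One rose, 1 fell and 1 more was higher without passing, and 23 stayed within 1.5-fold of mock in both clones. Slc25a13 and Slc25a12 encode citrin and aralar, the aspartate-glutamate carriers of the malate-aspartate shuttle. Slc25a13 read 8.25 in mock and 5.96 in both clones and fell 4.9-fold (log2 difference -2.29 ± 0.069, SE; limma adjusted p = 0.0293). Slc25a12 lay on the other side of mock, at 10.74 in mock and 11.15 in both clones, a log2 difference of 0.41 that did not pass (limma adjusted p = 0.147). The difference between these responses was not tested. Slc25a45 read 7.88, 9.50 and 9.49 in mock, clone 4 and clone 10, and rose 3.05-fold (log2 difference 1.61 ± 0.0694, SE; limma adjusted p = 0.0346). Slc25a23, a calcium-regulated exchanger of ATP-magnesium and phosphate, read 6.80, 9.21 and 8.88, a 4.73-fold difference that did not pass (limma adjusted p = 0.069). Carriers that oxidative phosphorylation depends on were near mock: the phosphate carrier gene Slc25a3 read 12.59 on all arrays, and the ADP/ATP carrier gene Slc25a5 read 12.86, 12.90 and 12.93. The iron carrier gene Slc25a37 (mitoferrin) read 9.44, 8.87 and 8.82.

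**Figure D4:**
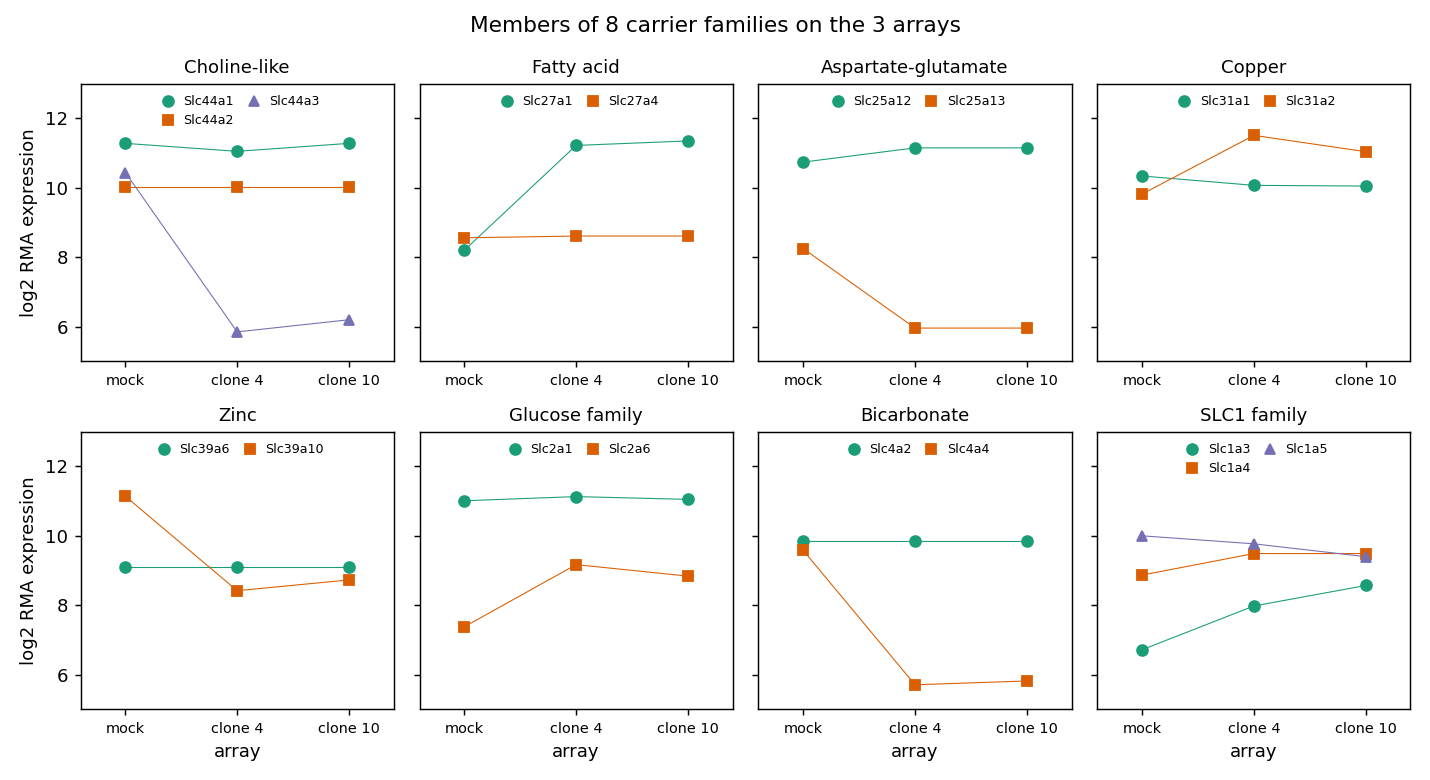
Log2 RMA expression (y axis) on the 3 arrays (x axis) for members of 8 carrier families or pairs, 1 line for each gene. Each panel has 1 gene that differs from mock by 2-fold or more in each clone (Slc44a3, Slc27a1, Slc25a13, Slc31a2, Slc39a10, Slc2a6, Slc4a4 and Slc1a3) beside relatives that do not; levels of different probe sets are not comparable, only their course over the arrays.

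Sugar and monocarboxylate carriers had 1 gene apart among 9. This class also follows the family number, so it includes the aromatic amino acid carrier gene Slc16a10, which was not counted with the amino acid carriers. Slc2a6, which encodes GLUT6, an intracellular member of the glucose carrier family, read 7.38 in mock against 9.17 in clone 4 and 8.84 in clone 10 (3.09-fold higher, limma adjusted p = 0.0929). Slc2a1, the gene of the widespread glucose importer GLUT1, read 11.01, 11.13 and 11.05. Slc16a1, the lactate and pyruvate carrier MCT1, read 11.09, 10.30 and 10.38, a log2 difference of -0.75 (limma adjusted p = 0.0885), and Slc37a3, of the sugar-phosphate carrier family, read 9.55 in mock and 9.20 in both clones.

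In the Golgi and endoplasmic reticulum, nucleotide sugar carriers of the SLC35 family bring activated sugars to the glycosylating enzymes. Members were grouped here by family number, and the cargo of each was not checked. None of 17 expressed SLC35 members was apart in both clones, and 14 stayed within 1.5-fold of mock. The widest were Slc35d1, a carrier of UDP-glucuronic acid, at 8.53, 7.69 and 7.74, and Slc35g1 at 10.01, 10.85 and 10.50. Slc35a1, which brings CMP-sialic acid to the Golgi, differed by -0.22 on the log2 scale (limma adjusted p = 0.556).

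Grouped by family number, carriers of phosphate, sulfate and organic ions and of vesicles numbered 7. The sulfate carrier gene Slc26a2 is not among them, since its family was counted with the inorganic ions above. Slc17a1, which encodes the sodium phosphate and urate carrier NPT1, read 6.16 in mock against 9.50 in clone 4 and 9.03 in clone 10. The measured difference, against a mock value under the array medians, was 8.6-fold, but with the clones 0.48 apart it did not pass (limma adjusted p = 0.069). Slc18b1, a vesicular polyamine carrier, read 6.15, 7.78 and 8.14 (3.51-fold higher, limma adjusted p = 0.0914). Slc22a23, an organic ion carrier family member, read 9.51, 8.28 and 8.19 (2.42-fold lower, limma adjusted p = 0.0523). Smaller differences were seen for the lysosomal sialic acid carrier gene Slc17a5 (-0.57) and the ergothioneine carrier gene Slc22a4 (0.47), both on the log2 scale, and the phosphate importer gene Slc20a1 read 9.46 on all arrays. Nucleoside and vitamin carriers had no member of 6 apart. Among them Slc19a2, a thiamine carrier, differed by -0.82 and the nucleoside carrier gene Slc29a2 by 0.56 on the log2 scale, and Slc29a1 read 10.73 throughout.

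Of the genes that are named after a carrier, the scaffold gene Slc9a3r2 (NHERF2) came nearest to 2-fold, at 9.79, 8.80 and 8.74 (log2 differences of -0.99 and -1.05, limma adjusted p = 0.0606), and Slc7a6os differed by 0.18. Without these 4 genes the counts of higher and lower members were still 8 and 10. Slc49a4, a lysosomal protein in no listed class, differed by 0.03. Of 9 expressed carrier genes with several probe sets none was apart, and the probe sets of Slc38a9 differed most, with -0.75 and -0.71 in clones 4 and 10 on the one shown and -0.04 and -0.02 on the other. Just inside the level of 8 stood Slc41a3, at 8.03 on all arrays, and Slc9a2 with its highest value of 8.09. Just outside stood Slc24a3, at 7.99 in mock against 6.63 and 7.98 in clones 4 and 10, and Slc22a5, whose highest value was 7.98. Among all 234 carrier genes below the level, none was higher and 3 were lower in both clones (Slc9a9, Slc7a11 and Slc43a2), of which 1 fell.

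Of 106 measured genes that work with carriers or resemble them, 2 rose (1.89%) and 4 fell (3.77%), against 0.401% and 0.762% of all genes. These lists were chosen with earlier results of these data known, so their shares describe the lists and support nothing beyond them. None of 11 measured subunits and regulators of the sodium pump was 2-fold apart in both clones, with Atp1b1 widest at 11.54, 12.42 and 12.45 (limma adjusted p = 0.0681). Of 15 accessory proteins, 1 rose: Praf2, a relative of the glutamate carrier-binding protein PRAF3, read 6.77, 10.60 and 10.68. Its mock value lay under the array medians. The chaperone gene of the monocarboxylate carriers, Bsg (basigin), read 10.93 in mock and 10.88 in both clones. Of 55 carriers without an Slc symbol, 3 fell (5.45%, against 0.762% of all genes and 1.36% of genes at the level of 8) and none rose: the prostaglandin carrier gene Slco2a1 (10.72, 8.55 and 8.48), the organic anion carrier gene Slco1a5 (7.30, 5.96 and 5.94) and the lysosomal membrane protein gene Cln3 (8.97, 6.55 and 6.60), with limma adjusted p-values of 0.0311, 0.0414 and 0.0293. For Slco1a5 and Cln3 the clone values lay under the array medians, and Slco1a5 reached the level of 8 on no array. Among 25 regulators known to act on carrier genes, 1 rose and 1 fell. Ppargc1a, a coactivator of mitochondrial genes, read 7.65, 10.62 and 10.59 (limma adjusted p = 0.0256). Hnf4a, a factor of epithelial transport genes in liver, gut and kidney, read 10.13, 7.15 and 7.05 (limma adjusted p = 0.0293).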

How the data were processed

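Array values of 3 samples were used. Per the submitters' processing notes, the authors made the deposited log2 values with RMA; version, build and filters are not given in the sources used here. Probe sets with 1 gene symbol in the platform annotation (21780 of 28815; 1605 had several and 5430 none) were named, with symbols updated by Entrez identifier through a GRCm38.p6 gene table. A single gene of the family is not reported here. Folds are 2 to the power of a log2 difference.

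Sizes were log2 differences of each clone from mock. The test was limma 3.58.1 in R 4.3.3 on all 19935 genes and 3 arrays (two-sided, 1 residual degree of freedom, Benjamini-Hochberg), with the variance prior (1.93 degrees of freedom, SD 0.0694) taken from the 8873 genes whose clones differed, because ties are common. Mock, a single array, is taken to have the spread of the clones. The script was tested on simulated data.

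Members, gene lists, transport classes (by family number) and the rule for named genes (all members 2-fold apart, preset members, the 2 nearest to 2-fold in each class, those at the level's edge, related genes apart) were chosen with earlier results of these data known. Other genes named as relatives of these, and the motifs and the windows shown, were chosen after their values were seen. Alternatives were another normalization, centring, the mean of probe sets, other level and fold thresholds, other priors and each clone left out.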

Additional observations from a re-analysis of the deposited data

How the results depend on the processing

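Directions did not turn under any alternative run for the named members. The counts of 8 higher and 10 lower genes kept within 1.5 times under a second quantile normalization, centring, averaged probe sets, levels of 7 and 9 and no level. Lower genes numbered 3 when members were taken by their mean, and 16 at a fold of 1.5. With 1 clone left out there were 8 higher genes either way and 10 to 11 lower ones; a test could not be fitted to 1 array against 1. Rises numbered 6 after subtracting each array's median, 4 with an intensity trend in the prior, and 1 without chromosomes 8, 14 and X (added after the data were seen), against 2 as reported. Falls numbered 10 after subtracting the median and 0 by the mean level, against 6, and 9 with the prior from all genes or the trend. The second quantile normalization kept 4 of the 6 falls, lost Slc44a3 and Slc7a7 and added Slc22a23. Calls near the threshold thus depend on these settings. Subtracting unequal medians (6.92 in clone 4 and 6.93 in clone 10) made equal clone values unequal, and so changed which genes set the prior. The counts after that step are therefore no independent check of the calls. How much each setting's handling of ties moved the counts was not tested. No paired analysis was possible because mock has a single array and the clones share no replicate number with it.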
